A study of Drosophila melanogaster with 9 samples.

Results

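The genes described here encode UDP-glycosyltransferases and glutathione transferases of Drosophila melanogaster. They were chosen by symbol: every gene deposited under a name that starts with Ugt, or with GstE, GstO, GstS, GstT or GstZ, while the delta class (GstD) was left out. Of the 13140 genes with counts in all 9 libraries, 27 met this rule: 16 Ugt genes, the 10 genes GstE1 to GstE10 of the epsilon class, and GstS1 of the sigma class. The GstO, GstT and GstZ symbols matched 0 genes. A further 30 genes of these families carry other symbols in the tables and are described separately. The gene deposited as Ugt (FBgn0014075) is now named Uggt, a glucosyltransferase that marks misfolded glycoproteins in the endoplasmic reticulum, so counts of detoxification Ugt genes below refer to the other 15.

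UDP-glycosyltransferases transfer a sugar, in insects usually glucose, from a UDP-sugar to small lipophilic molecules such as plant toxins, pigments and hormones, which makes them more soluble. Glutathione transferases join glutathione to reactive electrophiles, among them insecticides and aldehydes from oxidised lipids, and the epsilon and delta classes are insect classes that have expanded as gene clusters. Both families can act after cytochrome P450 enzymes have oxidised a compound, chiefly in gut, fat body, Malpighian tubule and antenna, and ABC transporters export the conjugates.

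Polyadenylated RNA of whole adult flies was sequenced in 9 libraries, 3 per group. All flies were adults of 10 to 11 days with a wild-type genotype on the Canton S background. GP/P flies descend from an obese grandfather through their father, GP/M flies descend from one through their mother (the labels give that parent as heterozygous), and WT flies have no obese grandparent. The series names mutants of AkhR, the gene for the adipokinetic hormone receptor, as the obese forebears. The comparisons ask whether descent from an obese grandfather, and the parent it passed through, is accompanied by a difference in transcript levels in flies that carry no mutation. Sex and the number of flies per library are not stated in the labels. Libraries with the same replicate number come from the same repeat of the experiment and are called a set.

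The libraries held 21777434 to 28166388 counts, and 12913 genes were kept by the filter for low counts, among them all 27 genes of the rule. Markers of head, gut and male tract were abundant: those of photoreceptors summed to 9246 to 10026 CPM (normalised counts scaled to 1 common library size), those of midgut to 7031 to 7689 CPM and those of the male accessory gland to 2638 to 3002 CPM. The 6 ovary and eggshell markers summed to only 17.7 to 30.5 CPM, and 2 of them, Cp18 and Vm26Aa, averaged under 1 CPM. Yp1, Yp2 and Yp3 of this list averaged 2.69, 1.75 and 11.1 CPM, against 1562 CPM for Acp36DE of the male accessory gland. By these markers the libraries were mainly of male flies, although the labels do not state the sex. In whole flies, fewer cells of a type and less RNA per cell cannot be told apart.

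Transcripts of the 27 genes were spread over a wide range. A few of them held most of the summed level of the 10 epsilon genes and of the 15 detoxification Ugt genes. Family genes deposited under other symbols, described below, are not counted in these shares. Levels are given as CPM per kilobase of exon, averaged over the 9 libraries with their SD. GstE9 was the most abundant of the 27 genes in 9 of 9 libraries, at 339 ± 11.6. GstE3 (202 ± 7.12), GstS1 (199 ± 5.78) and GstE7 (151 ± 15.9) followed, and the libraries of GstE3 and GstS1 overlapped in level. Among the 12407 genes with an exon length, whose median was 12.8, these 4 stood between percentile 94.3 (GstE7) and percentile 97.4 (GstE9). Their enzymes conjugate glutathione, and GstS1, known as an abundant protein of flight muscle, is active on hydroxynonenal, an aldehyde from oxidised lipids.

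GstE9, GstE3 and GstE7 made up 42.0%, 25.1% and 18.7% of the summed level of the 10 epsilon genes, together 85.7%. The other epsilon genes lay between GstE6 (24.1 ± 0.854) and GstE10 (8.01 ± 1.05), with GstE1, GstE8, GstE5, GstE4 and GstE2 in descending order between them. The highest of these 10 genes was 42.3 times the lowest. Reads of GstE1 and GstE10, whose exons overlap on opposite strands, and of GstE9, whose exons overlap those of imd, cannot be assigned with certainty. How strand and multiply mapped reads were handled is not stated in the sources used here, and the epsilon genes resemble each other in sequence.

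The detoxification Ugt genes spread further, with the highest 211 times the lowest. Ugt86Da was first at 61.4 ± 4.08, followed by Ugt36Bc at 48.0 ± 2.12, Ugt37b1 at 31.1 ± 1.89, Ugt86Dd at 27.1 ± 3.54 and Ugt35a at 21.2 ± 0.708. These 5 genes held 87.0% of the summed level of the 15. Ugt86Dd, a gene in which natural alleles affect the resistance of larvae to nicotine, held 12.5% of it. Ugt35b, described as an antennal gene, was at 0.871 ± 0.160, next to Ugt36Ba at 0.863 ± 0.182. Ugt86Dg (0.456 ± 0.0548) and Ugt37c1 (0.290 ± 0.110) closed the order, and only these last 4 genes of the 27 averaged under 1. Uggt, deposited as Ugt, stood at 23.1 ± 0.735.

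**Figure D1:**
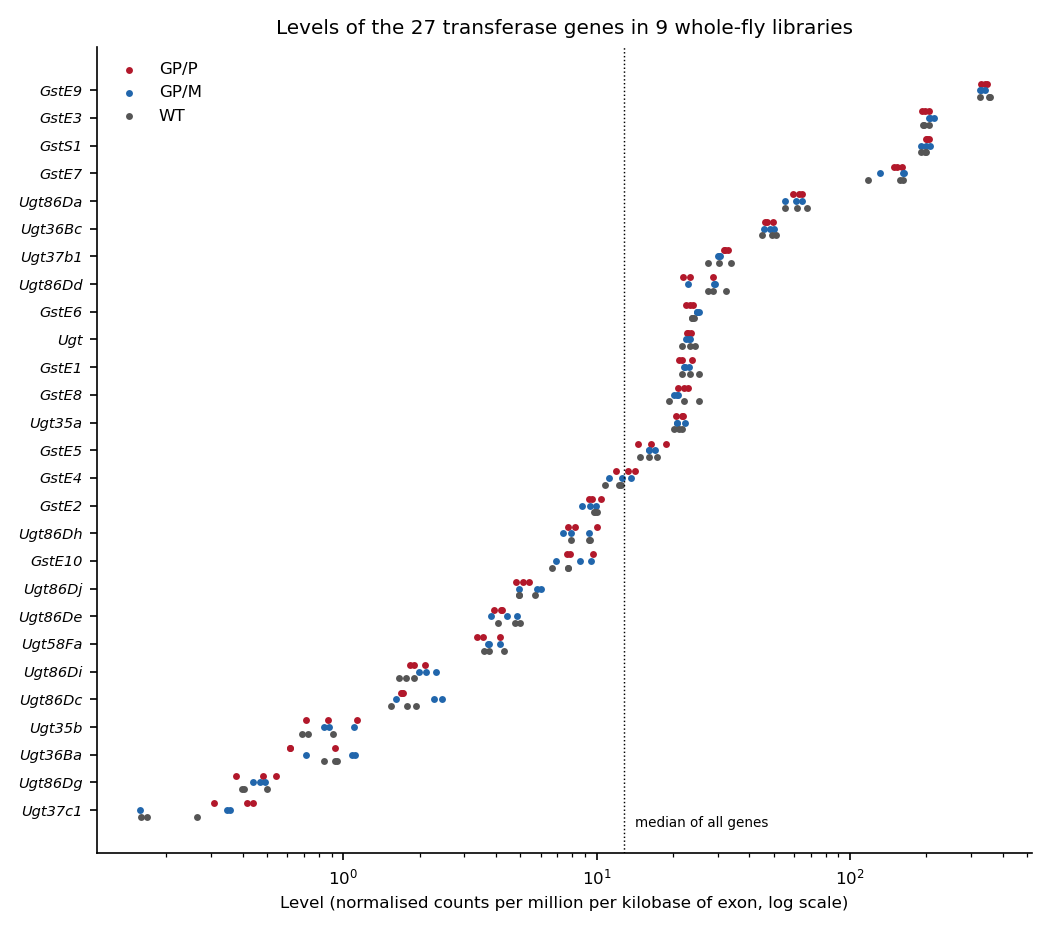
Level of each of the 27 genes in each of the 9 libraries, as normalised CPM per kilobase of exon on a log scale, with genes in descending order of their mean; each point is 1 library, coloured by group, and the dotted line is the median of all genes at 12.8. GstE9 stands alone at the top at 339, and points of the 3 groups lie together for most genes, with a wider spread at the bottom.

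Of the 26 pairs of neighbours in this order, 12 were apart in every library and 14 overlapped. GstE9 stood apart from GstE3, GstS1 from GstE7, GstE7 from Ugt86Da, Ugt86Da from Ugt36Bc and Ugt36Bc from Ugt37b1. In the 7 neighbouring genes Ugt37b1, Ugt86Dd, GstE6, Ugt, GstE1, GstE8 and Ugt35a each overlapped the next, although every library of Ugt37b1 lay above all those of the last 5. The steps below Ugt35a, GstE5, GstE4, GstE10, Ugt58Fa, Ugt86Dc and Ugt36Ba were also without overlap.

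Levels were steady between libraries. The coefficient of variation over the 9 libraries ran from 2.91% for GstS1 to 37.8% for Ugt37c1, with a median of 8.34%. In 11 genes the highest library was under 1.25 times the lowest, and in 4 genes (Ugt86Dc, Ugt35b, Ugt36Ba and Ugt37c1) it was over 1.5 times. All 4 of these belong to the 5 genes that averaged under 100 counts. GstS1 had 453, 459 and 465 CPM in GP/P, 470.3, 453 and 432 CPM in GP/M, and 456, 432 and 449 CPM in WT, so the groups overlapped. GstE9 likewise overlapped, with 259.9, 273 and 269.8 CPM in GP/P, 258, 269.5 and 258 CPM in GP/M, and 256, 279.9 and 278 CPM in WT.

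The summed output of the 27 genes was close in the 3 groups. The 27 genes summed to 1625 ± 15.8 CPM in GP/P, 1616 ± 15.5 CPM in GP/M and 1613 ± 62.3 CPM in WT (SD, n = 3 each), 0.162% of all counts. The 10 epsilon genes of the rule summed to 637 ± 7.19 CPM in GP/P, 636.5 ± 17.6 CPM in GP/M and 634 ± 37.8 CPM in WT. The 15 detoxification Ugt genes summed to 405 ± 4.94 CPM in GP/P, 405 ± 15.4 CPM in GP/M and 411 ± 23.7 CPM in WT. Each of these differences between group means was smaller than the SD of the WT libraries.

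Descent through the father (GP/P against WT) gave 0 of the 27 genes under the adjusted p threshold of 0.05 (edgeR's quasi-likelihood test with Benjamini-Hochberg adjustment), where 0% of the 12913 genes passed. DESeq2 and limma-voom also called 0 genes. At an unadjusted p under 0.05 edgeR found 334 genes, 2.59% of those tested, DESeq2 168 and limma-voom 331, and 1 of the 27, Ugt37c1, was among edgeR's. Of the 27 genes 13 lay above WT and 14 below, against 51.8% of all genes above, a share that the TMM scaling holds near the middle.

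Ugt37c1 had the smallest p. It had 0.724, 0.765 and 0.537 CPM in GP/P, against 0.277, 0.293 and 0.460 CPM in WT, from 15 to 20 counts and 7 to 10 counts. All 3 GP/P libraries lay above all 3 WT libraries. GP/P was at 1.97-fold of WT (95% interval 1.14 to 3.40, unadjusted p = 0.0194, adjusted p = 0.9997 by edgeR's quasi-likelihood test), and GP/P was higher in 3 of 3 sets. Libraries without overlap and higher in GP/P were found for 1 of the 27 genes, against 4.07% of all genes, and lower ones for 0 of 27, against 4.41%.

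Ugt86Dd had 48.2, 39.2 and 36.5 CPM in GP/P, against 54.0, 46.1 and 47.9 CPM in WT. Each GP/P library lay below the WT library of its own set, but the groups overlapped, since the first GP/P library exceeded WT libraries 2 and 3. GP/P was at 0.84-fold of WT (95% interval 0.69 to 1.00, unadjusted p = 0.0552, adjusted p = 0.9997 by edgeR's quasi-likelihood test). This fit does not pair the libraries of a set. The fit with the replicate number as a block, which does, gave a lower p, reported in the last section, and also no call. In the authors' deposited table Ugt86Dd was the 1 gene of the 27 with a p-value under 0.05 in this comparison, at 0.00243, with an adjusted p of 0.9999 and an unmoderated log2 fold change of -0.26.

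GstE10 had 8.69, 8.87 and 10.9 CPM in GP/P, against 7.52, 8.70 and 8.70 CPM in WT. The groups overlapped narrowly and GP/P was higher in 3 of 3 sets, at a fold change of 1.15 (95% interval 0.95 to 1.39, unadjusted p = 0.137, adjusted p = 0.9997). Its log2 fold change of 0.20 was 0.08 without GP/P replicate 3, the library with the highest level. Over the 22 genes that averaged at least 100 counts, fold changes of GP/P against WT ran from 0.84 to 1.15.

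Descent through the mother (GP/M against WT) likewise gave 0 of the 27 genes, where 0% of all genes passed by edgeR's quasi-likelihood test; DESeq2 and limma-voom also called 0. At an unadjusted p under 0.05 edgeR found 198 genes, 1.53% of those tested, DESeq2 77 and limma-voom 194, and 1 of the 27, Ugt86Di, was among edgeR's. Above WT lay 15 of the 27 genes, against 51.7% of all genes. The median log2 fold change was 0.02, and it was 0.00314 without WT replicate 2 and 0.05 without WT replicate 3. The same WT libraries serve in both comparisons with WT.

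Ugt86Di had 5.43, 5.95 and 5.08 CPM in GP/M, against 4.51, 4.85 and 4.23 CPM in WT. All GP/M libraries were above all WT libraries. GP/M was at 1.21-fold of WT (95% interval 1.03 to 1.42, unadjusted p = 0.0268, adjusted p = 1 by edgeR's quasi-likelihood test), with GP/M higher in 3 of 3 sets. GstE6 also had every GP/M library (18.7, 18.7 and 18.9 CPM) above every WT library (18.2, 17.8 and 17.8 CPM), at 1.05-fold. These 2 of 27 genes stand against 2.37% of all genes without overlap and higher in GP/M, and 0 of 27 against 2.53% without overlap and lower.

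Ugt86Dc, the neighbour of Ugt86Di on the chromosome, had 2.56, 3.92 and 3.63 CPM in GP/M, against 2.45, 2.84 and 3.08 CPM in WT. The first GP/M library lay among those of WT and the others above them. The fold change was 1.21 (95% interval 0.95 to 1.54, unadjusted p = 0.121). The log2 fold change of 0.27 was 0.15 without GP/M replicate 2 and 0.44 without GP/M replicate 1.

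GstE3, the second in level of GstE1 to GstE10, had 156, 154 and 162 CPM in GP/M, against 147, 148 and 155 CPM in WT. The groups overlapped by 1 library on each side, at a fold change of 1.05 (95% interval 0.98 to 1.13, unadjusted p = 0.154). Ugt86Dc and GstE3 both had an adjusted p of 1, and in 3 of 3 sets GP/M was the higher.

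Between the lines (GP/P against GP/M), 0 of the 27 genes passed the adjusted p by edgeR's quasi-likelihood test and 0% of all genes did; DESeq2 and limma-voom called 0 as well. At an unadjusted p under 0.05 edgeR found 220 genes (1.70% of those tested), DESeq2 90 and limma-voom 212, and 0 of the 27 were among them. GP/P was above GP/M in 15 of the 27, against 51% of all genes, with a median log2 fold change of 0.01 that turned to -0.02 without GP/M replicate 1.

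Ugt36Ba had the smallest p of this comparison. It had 1.66, 1.11 and 1.11 CPM in GP/P, against 1.28, 1.94 and 1.99 CPM in GP/M, and the groups crossed in the first set. GP/P was at 0.74-fold of GP/M (95% interval 0.53 to 1.03, unadjusted p = 0.0708, adjusted p = 0.9996), lower in 2 of 3 sets. Ugt86Dc had 2.73, 2.75 and 2.69 CPM in GP/P, steadier than its GP/M values given above, at a fold change of 0.81 (95% interval 0.64 to 1.03, unadjusted p = 0.0822). Its log2 fold change of -0.30 was -0.19 without GP/M replicate 2 and -0.47 without GP/M replicate 1.

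GstE6 had 18.1, 17.5 and 16.9 CPM in GP/P, all below the 18.7 to 18.9 CPM in GP/M, at a fold change of 0.93 (95% interval 0.85 to 1.02, unadjusted p = 0.0992). It was the 1 gene of the 27 without overlap and lower in GP/P, against 3.24% of all genes. Ugt37b1 (1.06-fold) and GstE8 (1.07-fold) were the 2 without overlap and higher in GP/P, against 3.68% of all genes.

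With both lines together against WT, 0 of the 27 genes passed and 0% of all genes did by edgeR's quasi-likelihood test; DESeq2 and limma-voom called 0. The unadjusted p was under 0.05 for 260 genes by edgeR (2.01%), 132 by DESeq2 and 249 by limma-voom, and Ugt37c1 was the 1 of the 27 found by edgeR. Its fold change was 1.69 (95% interval 1.02 to 2.80, unadjusted p = 0.0416, adjusted p = 0.9999), but 1 GP/M library, at 0.273 CPM, lay below all WT libraries. Ugt86Di was at 1.15-fold (edgeR's unadjusted p = 0.0590). The mean of the 2 lines was above WT in 3 of 3 sets, but in set 2 GP/P (4.67 CPM) lay below WT (4.85 CPM). Ugt86Dd was at 0.88-fold (edgeR's unadjusted p = 0.0945). Its mean of the lines was below WT in 3 of 3 sets, but in set 3 GP/M (48.5 CPM) lay above WT (47.9 CPM). Leaving out WT replicate 1 moved the log2 fold change of Ugt86Dd from -0.19 to -0.12. Above WT lay 16 of the 27 genes, against 51.3% of all genes. None of the 27 genes had both lines wholly above or wholly below WT, against 0.666% and 0.62% of all genes.

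**Figure D2:**
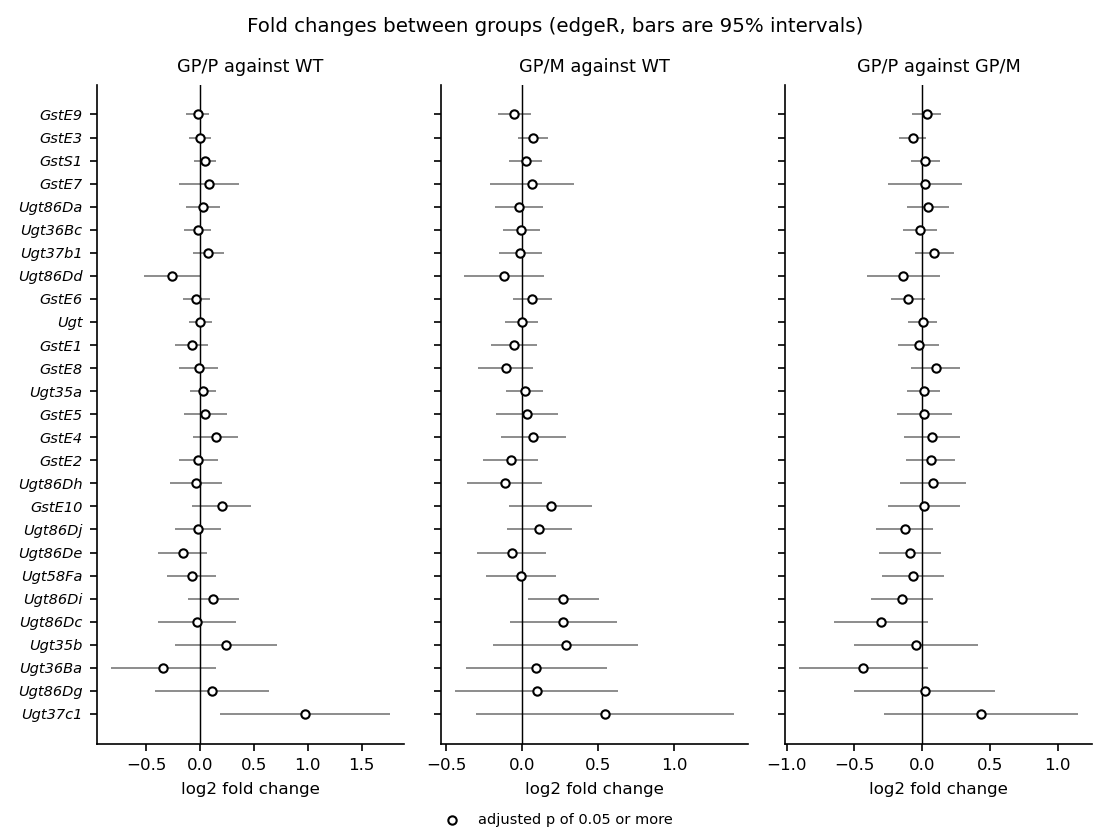
Log2 fold changes of the 27 genes for each line against WT and for GP/P against GP/M, with 95% intervals as bars; open circles mark an adjusted p of 0.05 or more, and genes are in descending order of level. All circles are open, most lie close to 0, and Ugt37c1 at the bottom has the highest value (0.98 in GP/P) and wide intervals.

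How small a difference could have been seen depended on the counts. The standard error of the log2 fold change of GP/P against WT was 0.0467 to 0.126 for the 22 genes that averaged at least 100 counts, and 0.168 to 0.367 for the 5 below. The 95% interval stayed within 1.25-fold in either direction for 16 of the 27 genes in GP/P against WT, for 16 in GP/M against WT and for 19 in GP/P against GP/M. Within 1.5-fold it stayed for 23, 23 and 24 genes in the same comparisons. In GP/P against WT the intervals of Ugt37c1, Ugt36Ba, Ugt35b and Ugt86Dg went beyond 1.5-fold, so differences of that size were not excluded for them. These errors and intervals come from the fit without the replicate block, where the common biological coefficient of variation was 6.56%, against 4.36% with the block.

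The repeats of the experiment held more of the variance than the groups did. Of the variance of log2 CPM over the 9 libraries, the set held a median of 45.0% for the 27 genes and the group 23.0%, against 41.5% and 14.9% for all genes tested. The set share exceeded the group share in 17 of the 27 genes. It was highest for Ugt86Da (85.5%), Ugt35a (80.3%), Ugt86Dh (76.2%) and Ugt36Bc (74.8%), whereas GstE6 (76.1%) and Ugt86Di (62.5%) had the highest group shares. With 3 groups and 3 sets, each share has few degrees of freedom.

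Set 3 against set 1, with the group in the fit, called 3 of the 27 genes (11.1%) with edgeR's quasi-likelihood test, where 18.7% of all genes passed. All 3 were higher in set 3, as were 11.7% of all genes, while 0 of the 27 and 6.92% of all genes were called lower. The share of the 27 was at or below this background. Sets without overlap were found for 5 of the 27 genes that were higher (18.4% of all genes) and 1 that was lower (17% of all genes), and the unadjusted p was under 0.05 for 6 of the 27 (31.9% of all genes). Set 3 had the higher level in 17 of the 27 genes, against 48.3% of all genes, at a median log2 fold change of 0.06, against -0.01 over all genes.

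Ugt86Da rose in set 3 in all 3 groups. It had 129, 129 and 134 CPM in set 3 (in GP/P, GP/M and WT, an order kept below), against 119, 111 and 110.2 CPM in set 1. The sets did not overlap, and set 2 lay between them at 125, 122 and 123 CPM. The fold change of set 3 against set 1 was 1.15 (log2 0.21 ± 0.0380, SE, adjusted p = 0.00115 by edgeR's quasi-likelihood test), and the call held when any 1 of the 9 libraries was left out, at log2 fold changes of 0.17 to 0.24.

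Ugt36Bc had 97.0, 94.3 and 99.5 CPM in set 3, against 89.9, 89.5 and 88.1 CPM in set 1, without overlap. Set 3 was at 1.09-fold of set 1 (log2 0.12 ± 0.0392, SE, adjusted p = 0.0383 by edgeR's quasi-likelihood test). It was called in 3 of the 9 fits that left out a library, and not without any of the GP/P libraries, GP/M replicate 1, WT replicate 1 or WT replicate 3 (log2 fold changes of 0.10 to 0.14).

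GstE8 had 25.6, 23.2 and 28.5 CPM in set 3, against 23.6, 22.6 and 21.6 CPM in set 1. The sets overlapped, and the widest gap was between the WT libraries. Set 3 was at 1.14-fold of set 1 (log2 0.19 ± 0.0632, SE, adjusted p = 0.0450). GstE8 was called in 2 of the 9 fits that left out a library, those without GP/M replicate 1 and GP/M replicate 3, and its log2 fold change was 0.11 without WT replicate 1 or WT replicate 3.

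Set 2 against set 1 gave 2 of the 27 genes (7.41%), where 2.47% of all genes passed, 1.49% higher and 0.984% lower. Both belong to the Ugt86D genes, and they changed in opposite directions. Sets without overlap were found for 6 of the 27 genes that were higher (10.4% of all genes) and 2 that were lower (8.92% of all genes), and the unadjusted p was under 0.05 for 7 of the 27 (13.6% of all genes). Set 2 had the higher level in 18 of the 27 genes, against 52.6% of all genes. Ugt86Dh had 20.3, 19.0 and 19.0 CPM in set 2, against 15.7, 15.0 and 16.2 CPM in set 1. Its sets did not overlap, and the fold change was 1.25 (log2 0.32 ± 0.0665, SE, adjusted p = 0.0125 by edgeR's quasi-likelihood test). In set 3 Ugt86Dh had 16.7, 16.0 and 19.1 CPM, so the WT library lay above those of the lines there.

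Ugt86Dd had 39.2, 38.4 and 46.1 CPM in set 2, against 48.2, 49.2 and 54.0 CPM in set 1, and every set 2 library lay below every set 1 library. Its fold change was 0.82 (log2 -0.29 ± 0.0695, SE, adjusted p = 0.0441). Ugt86Dh was called in 4 of the 9 fits without a library, and not without GP/P replicate 1 or 2, GP/M replicate 1 or 2, or WT replicate 1. Ugt86Dd was called in 3 of the 9, and not without a library numbered 1 or 2 of any group. Without GP/P replicate 1, GstE7 was called in their place.

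Set 3 against set 2 gave 0 of the 27 genes, where 5.92% of all genes passed by edgeR's quasi-likelihood test, 4.31% higher and 1.61% lower; DESeq2 and limma-voom called 0 of the 27. The unadjusted p was under 0.05 for 6 of the 27 by edgeR (22.7% of all genes), 0 by DESeq2 and 5 by limma-voom. GstE4 had the lowest adjusted p, 0.0978, at 0.86-fold. Sets without overlap were found for 4 genes that were higher (14.7% of all genes) and for GstE4, which was lower (14% of all genes). Set 3 had the higher level in 18 of the 27, against 47.4% of all genes.

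The summed markers of some tissues that hold these enzymes also differed between the sets. The 4 fat body markers summed to 5788 to 6292 CPM in set 3, 5322 to 5429 CPM in set 2 and 5263 to 5432 CPM in set 1. The 8 midgut markers summed to 7034 to 7261 CPM in set 3, 7031 to 7106 CPM in set 2 and 7464 to 7689 CPM in set 1. Set 3 was thus highest in the sum of the fat body markers and set 1 in that of the midgut markers. Abundant markers weigh most in these sums: Rfabg (2435 CPM on average) and desat1 (2209 CPM) in fat body, and Mal-A1 (2857 CPM) in midgut. The sums of the 4 Malpighian tubule markers overlapped (160.4 to 171, 155 to 175 and 161 to 168 CPM in sets 3, 2 and 1). The 5 testis markers had their lowest sums in set 3, at 1733 to 1794 CPM, against 1865 to 1960 CPM in set 2 and 1854 to 1998 CPM in set 1. The 6 antenna markers overlapped (103 to 109 CPM in set 3, 106 to 112 CPM in set 2 and 109 to 114.7 CPM in set 1). The part of these markers in the differences between sets was not tested.

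**Figure D3:**
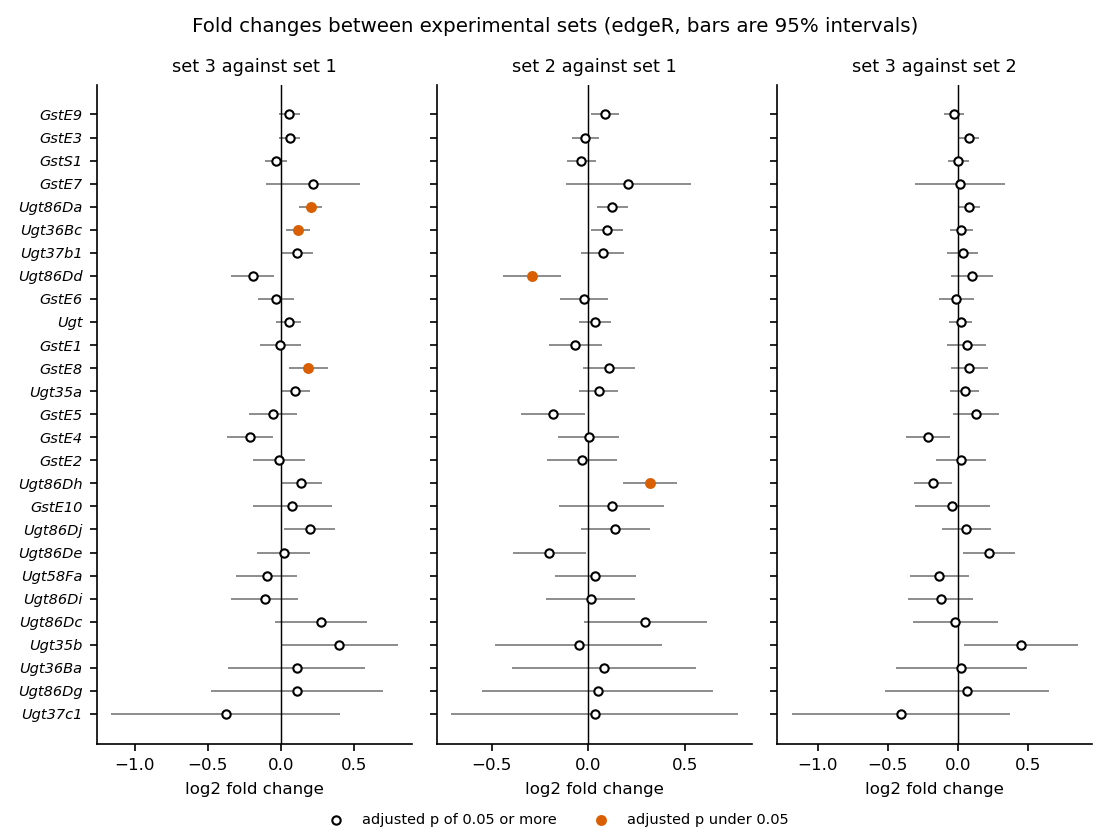
Log2 fold changes of the 27 genes for set 3 against set 1, set 2 against set 1 and set 3 against set 2, with 95% intervals as bars; filled circles mark an adjusted p under 0.05. The filled circles are Ugt86Da, Ugt36Bc and GstE8 in the first panel and Ugt86Dh and Ugt86Dd in the second, and the third panel has none.

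**Figure D4:**
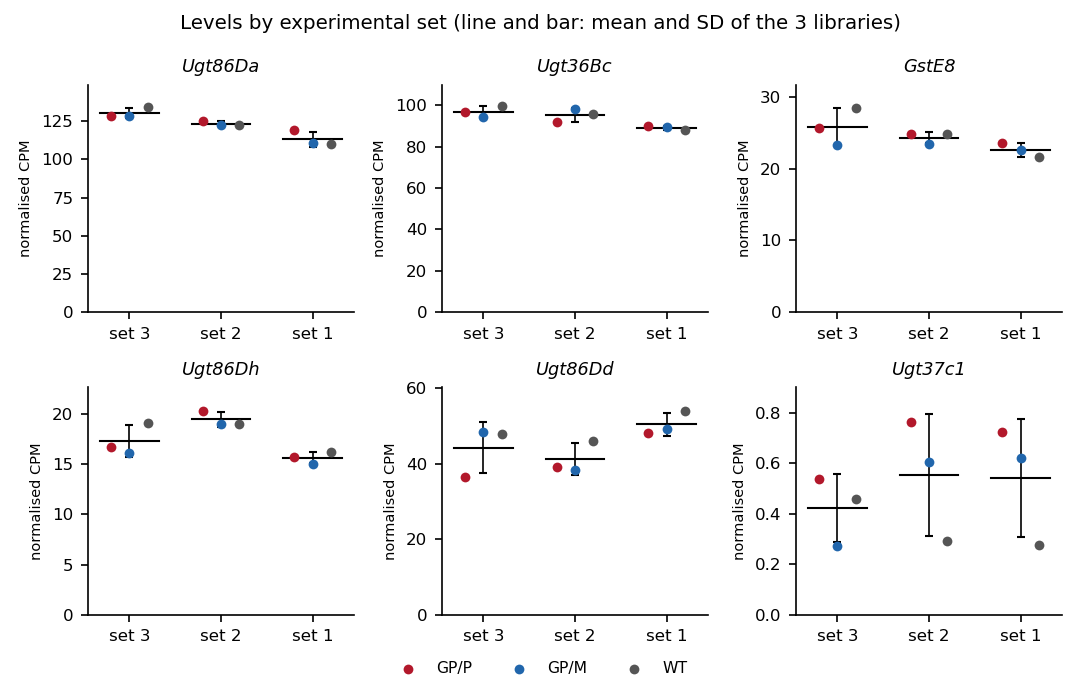
Normalised CPM in each library of the 5 genes called between sets and of Ugt37c1, by set, with points coloured by group and the mean and SD of the 3 libraries as line and bar. For Ugt86Da the 3 libraries of set 3 (129, 129 and 134 CPM) lie above those of set 1, while in Ugt37c1 the GP/P library is the highest of each set.

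Many of these genes lie side by side. In the order of the release 6 annotation, the 10 epsilon genes form 1 unbroken run on chromosome arm 2R, from GstE10 and GstE1 to GstE9. On arm 3R, Ugt86Di, Ugt86Dc and Ugt86Da form a run of 3, and Ugt86Dg, Ugt86De, Ugt35b, Ugt35a, Ugt86Dj and Ugt86Dh form a run of 6. Abundant and scarce genes stood side by side: the 3 abundant genes of the epsilon run were flanked by genes at 9.67 (GstE2), 12.5 (GstE4), 24.1 (GstE6) and 21.6 (GstE8). Ugt86Da, at 61.4, was next to Ugt86Dc, at 1.86, and Ugt35a, at 21.2, next to Ugt35b, at 0.871.

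Across the 9 libraries, which share sets, adjacent genes varied together in some places only. Pearson's r of log2 CPM between adjacent epsilon genes had a median of -0.06, from -0.56 (GstE3 and GstE4) to 0.80 (GstE8 and GstE9). In the Ugt run of 3 the pairs had r of 0.42 and 0.52, and in the run of 6 the median was 0.39. Over all 351 pairs of the 27 genes the median was 0.06, the highest r was 0.87 (GstE8 and Ugt37b1, on different arms) and the lowest -0.78 (GstE10 and Ugt86Dd). These values describe 9 points, and libraries of a set are not independent of each other.

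**Figure D5:**
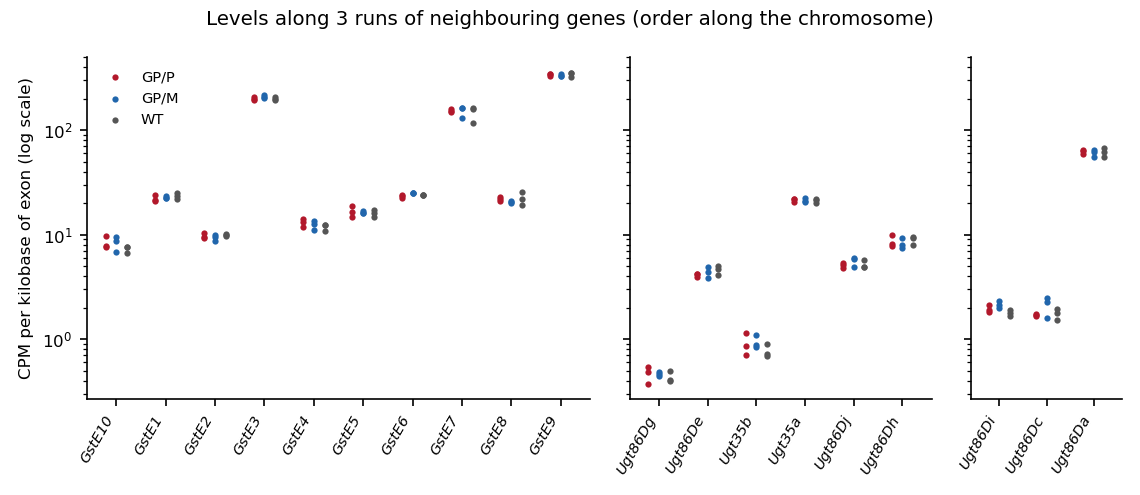
Level of each gene along the 3 runs of neighbouring genes, in their order on the chromosome, as normalised CPM per kilobase of exon on a log scale; each point is 1 library, coloured by group. Abundant genes such as GstE9 (339) and Ugt86Da (61.4) stand beside genes of far lower level, and the groups lie together.

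The 30 family members deposited under other symbols, of which 29 were tested, include 17 Ugt, 4 GstE, 3 GstO, 4 GstT and 2 GstZ genes. GstE12 (deposited as CG16936) was at 317 ± 8.29, close to GstE9. Its exons overlap those of CG3894 on the other strand, so its reads cannot be assigned with certainty. GstT4 (CG1681) of the theta class was at 272 ± 13.4 and GstO3 (CG6776) of the omega class at 99.6 ± 4.25. Among the Ugt genes Ugt50B3 (CG30438), at 61.2 ± 1.74, was close to Ugt86Da. None of the 29 was called between groups by edgeR's quasi-likelihood test. Between sets 3 and 1 there were 3 calls, where 11.7% of all genes were called higher and 6.92% lower. All 3 were higher in set 3: GstZ2 (CG9363), a zeta-class enzyme of tyrosine breakdown, at 1.12-fold, Ugt303B3 (CG10170) at 1.16-fold and Ugt37A3 (CG5999) at 1.14-fold. In set 3 against set 2, where 4.31% of all genes were called higher, GstZ2 (1.14-fold) and Ugt37A3 (1.29-fold) were also called, from the same set 3 libraries. Set 2 against set 1 had 0 calls.

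Genes that work with these transferases were likewise not called between groups. Lists of cofactor supply, partner enzymes and regulators held 0 called genes in each comparison between groups, where 0% of all genes passed: 5 genes of UDP-sugar supply, 8 of glutathione synthesis and redox, 11 of oxidation and epoxide hydrolysis, 3 sulfotransferases, 4 efflux transporters, 6 regulators and 11 delta-class transferases. The median log2 fold changes against WT ran from -0.04 (oxidation) to 0.08 (delta class) in GP/P, and from -0.09 (oxidation) to 0.03 (delta class) in GP/M. Of the 11 oxidation genes, GP/P was below WT for 10 and GP/M was below WT for 9. Of all genes, 51.8% lay above WT for GP/P and 51.7% for GP/M. Both comparisons use the same WT libraries. For genes described as higher or lower in 3 of 3 sets, the share of all genes that did so is not given here. In edgeR's fit without the replicate block, 0 of the 11 had an unadjusted p under 0.05 for GP/P, GP/M or both lines together. With the replicate block 5 of the 11 had an unadjusted p under 0.05 in GP/M, where 452 of the 12913 genes did. Only 1 of the 11 did so for GP/P, and 3 did for both lines together. In each of these fits 0 of the 11 were called, and counts with the block are given for this list only. GstD2, of the delta class, had the lowest p of its list, at 0.42-fold in GP/P (unadjusted p = 0.00784) and 0.52-fold in GP/M (unadjusted p = 0.0261) of the shared WT libraries, with no call. Gclm, the modifier subunit of the enzyme that starts glutathione synthesis, was at 1.09-fold in GP/P and 1.08-fold in GP/M, higher in 3 of 3 sets each, with no call.

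Between sets these lists did contain calls. The shares of all genes called were 18.7% in set 3 against set 1, 2.47% in set 2 against set 1 and 5.92% in set 3 against set 2. UGP, the enzyme that makes UDP-glucose, was higher in set 3 (1.25-fold, adjusted p = 2.27e-05) and in set 2 (1.22-fold) than in set 1. Set 1 libraries are shared by both of these comparisons. In set 3 against set 1, 2 of the 4 efflux transporters rose, Mdr49 (1.21-fold) and MRP (1.20-fold). In the same comparison 2 of the 5 genes of UDP-sugar supply, 1 of the 3 sulfotransferases and 1 of the 11 delta-class genes rose, and 1 of the 8 genes of glutathione synthesis and redox fell. Of the 6 regulators 1 rose, cnc (1.15-fold), the factor that switches on glutathione transferase genes under oxidative stress. Of the 11 genes of oxidation and epoxide hydrolysis, 2 rose and 4 fell, while in set 2 against set 1 there was 1 rise and 5 falls, the lowest p being those of the epoxide hydrolase Jheh1 (0.78-fold) and Cyp6w1 (0.74-fold), a cytochrome P450. In set 3 against set 2, 5 of these 11 genes were called higher and 0 lower. In that comparison 2 of the 4 efflux transporters and 1 of the 6 regulators were also called higher. Of the 8 genes of glutathione synthesis and redox, 1 was called higher and 1 lower there.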

How the data were processed

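The deposited values used here are raw read counts per gene in 3 tables, 1 per pair of groups, per the file headers. The authors' log2 fold changes and p-values in these tables are given only as deposited values, and 18 further columns of normalised values were not used here. The submitters' processing notes name Novoalign, DESeq and dm3 (the genome build), with no versions. Polyadenylated RNA was prepared after Trizol extraction, per the labels' protocols. Counts of a library agreed between tables (0 values differed). No 2 libraries were copies: over genes averaging 50 or more counts, the chi-square statistic per gene was 3.28 or more for every pair.

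Counts were fitted with edgeR 4.0.16 in R 4.3.3 (TMM, filterByExpr by group, robust quasi-likelihood F-test) over all 9 libraries with the group as the only term, or set and group for comparisons of sets. P-values were adjusted over 12913 genes and calls made under 0.05. Standard errors were obtained by dividing the log2 fold change by the root of F. Levels are TMM-normalised CPM, per kilobase of summed exons of the release 6 annotation; log2 CPM used a prior count of 2. Of the identifiers, 12627 were found in the name table, including all 27 members. Coordinates and sequences are not printed, since no genome of the files' build was used here.

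Members, gene lists and tests were chosen with earlier results of these data known. The rule for values in every library took the 3 smallest p of each comparison between groups, the most abundant gene of each class, and the called genes between sets. From the other lists at most 2 genes per comparison were named by p. The scripts were tested on simulated data. The replicate number was taken to pair libraries, since the design text ties a set to each repeat of the experiment. Deviations of same-numbered libraries from the group means correlated at 0.0657 to 0.293 (Pearson's r across genes), and 8 of 9 pairs exceeded 0.1. Pairs that differed in both number and group had r of -0.267 to 0.0267, and pairs within a group -0.667 to -0.308. The deviations of the 3 libraries of a group sum to 0, so these ranges are not independent of each other. The labels call the replicates independent both biologically and experimentally. Alternatives were RLE size factors, no filter or a filter of 1 CPM, limma-voom 3.58.1, DESeq2 1.42.0, the replicate block, other thresholds, only the 6 libraries compared, no group term, and leaving out each library.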

Additional observations from a re-analysis of the deposited data

How the results depend on the processing

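Between groups, 0 of the 27 genes were called in all 4 comparisons under each alternative run, including those that left out 1 library. With the replicate block, which pairs libraries of a set, the common biological coefficient of variation was 4.36%, against 6.56% without it, and 0 of the 27 genes were called in each comparison. The genes at an unadjusted p under 0.05 then numbered 885 for GP/P and 452 for GP/M against WT, 592 between the lines, and 655 for both lines against WT. Ugt86Dd had a blocked p of 0.0023 in GP/P against WT (adjusted p = 0.549 by edgeR's quasi-likelihood test) and of 0.00673 in both lines against WT (adjusted p = 0.895). DESeq2 with the block called 1 gene of all tested in GP/P against WT, not one of the 27.

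Between sets the counts moved. Set 3 against set 1 gave 1 of the 27 genes (Ugt86Da) with DESeq2 and 1 (Ugt86Da) at an adjusted p under 0.01, against 3, and all genes called numbered 1378 and 1136, against 2409. Set 2 against set 1 gave 1 (Ugt86Dd) with DESeq2, 0 at an adjusted p under 0.01 and 1 (Ugt86Dh) without the group term, against 2, and all genes called numbered 212, 123 and 317, against 319. Set 3 against set 2 gave 0 of the 27 under each alternative, with 144 of all genes at an adjusted p under 0.01, against 764, and 487 with DESeq2. Leaving out 1 library at a time gave 1 to 4 of the 27 in set 3 against set 1 and 0 to 2 in set 2 against set 1. The cause of these changes was not tested, apart from the stricter threshold and the fewer libraries. With DESeq2 the adjusted p was 0.122 for Ugt36Bc, 0.162 for GstE8 and 0.105 for Ugt86Dh. The filter of at least 1 CPM dropped Ugt37c1 and could give no value for it. Depth limits the 5 genes under 100 counts.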
